A study of Homo sapiens with 24 samples.

Results

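ES2 and A2780 are established human ovarian cancer cell lines, and the genes that differ between them without treatment are described here. The tested libraries were 6 of ES2, with 3 given a control siRNA (siCtrl) and 3 given the solvent DMSO, set against 6 of A2780 given the same controls, which made 12 of the 24 RNA-seq libraries of the series. Both lines are labelled as wild type in genotype and as ovarian cancer cells. The other 12 libraries, 3 in each line with an siRNA against the kinase VRK1 (siVRK1) and 3 in each line with the plant flavone luteolin, were not used to choose genes. A gene was kept when ES2 and A2780 differed in the same direction under siCtrl and under DMSO, each at an adjusted p below 0.05 in limma. Of 13541 genes tested, 8956 were kept, which is 66.1% of them: 3714 were higher in ES2 (27.4%) and 5242 were lower in ES2 (38.7%). Under siCtrl alone 11169 genes were called (82.5%), and under DMSO alone 10667 (78.8%). Of the calls under siCtrl 37.6% were higher in ES2, and 48.7% after median-of-ratios scaling of the libraries. Of the kept genes 41.5% were higher in ES2, and 48.9% after that scaling, so the excess of lower genes depends on the scaling. In 3035 of the 3714 genes kept as higher and 4458 of the 5242 kept as lower, the 6 libraries of one line did not overlap with the 6 of the other. A lack of overlap was thus the rule among kept genes and sets no kept gene apart. Each line is 1 cell line, so a difference between them belongs to this pair of lines, and since no label tells whether a group's 3 libraries were grown as separate cultures, the p-values reflect spread among libraries that may be technical.

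As background, ES2 was derived from an ovarian tumour described as clear cell carcinoma and carries an activating BRAF mutation. A2780 was derived from an ovarian carcinoma. Ovarian carcinomas fall into types with different precursor cells, and lines in long culture differ in adhesion, matrix proteases, growth factor loops and the genes that fix positional identity. The comparison sets a baseline against which the answers of these lines to the siRNA and to luteolin can be read.

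Levels are TPM, which are scaled by transcript length and to a fixed sum per library, so they can be compared between genes but keep no record of depth, which is unknown. Differences are ES2 minus A2780 on the log2(TPM + 1) scale, averaged over both controls and given relative to the median of all genes tested, which was -0.16, with the standard error of the fit after ±. Adjusted p-values and calls refer to the difference from 0 before that median was subtracted. Median-of-ratios scaling moved that median to -0.02. The scale understates differences of genes below about 1 TPM, and for a gene listed at 0 throughout one line the difference depends on the added 1, so only its levels are given. Each library held 11792 to 12346 genes at 1 TPM or more. Across genes, which are not independent replicates, log2 levels correlated at 0.992 to 0.995 within a group, at 0.972 to 0.983 between the controls of a line and at 0.73 to 0.755 between the lines. In a principal component analysis, ES2 and A2780 libraries lay apart on the leading component, with 89% of the variance.

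The largest differences were close to all-or-none. S100A6, a small calcium-binding protein, ranged from 1490 to 1780 TPM over the 6 ES2 libraries (median 1660), against 0.343 to 0.678 TPM over the 6 A2780 libraries (median 0.45). MMP1, the interstitial collagenase, ranged from 4750 to 7160 TPM in ES2 (median 5950), against 2.69 to 12.4 TPM in A2780 (median 6.85). Both genes were low in every A2780 library and among the most abundant transcripts of ES2, with differences of 10.3 ± 0.05 for S100A6 (adjusted p 4.36e-19) and 9.88 ± 0.04 for MMP1 (adjusted p 1.19e-19). In the other direction MEST, a paternally expressed imprinted gene, ranged from 0.306 to 2.61 TPM in ES2 (median 0.647), against 1580 to 2260 TPM in A2780 (median 2060), a difference of -9.86 ± 0.22 (adjusted p 3.12e-13). HGF, the ligand of the MET receptor, was listed at 0 in all 6 ES2 libraries, against 566 to 811 TPM in A2780 (median 731). No library of either line came near the range of the other for these 4 genes.

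**Figure D1:**
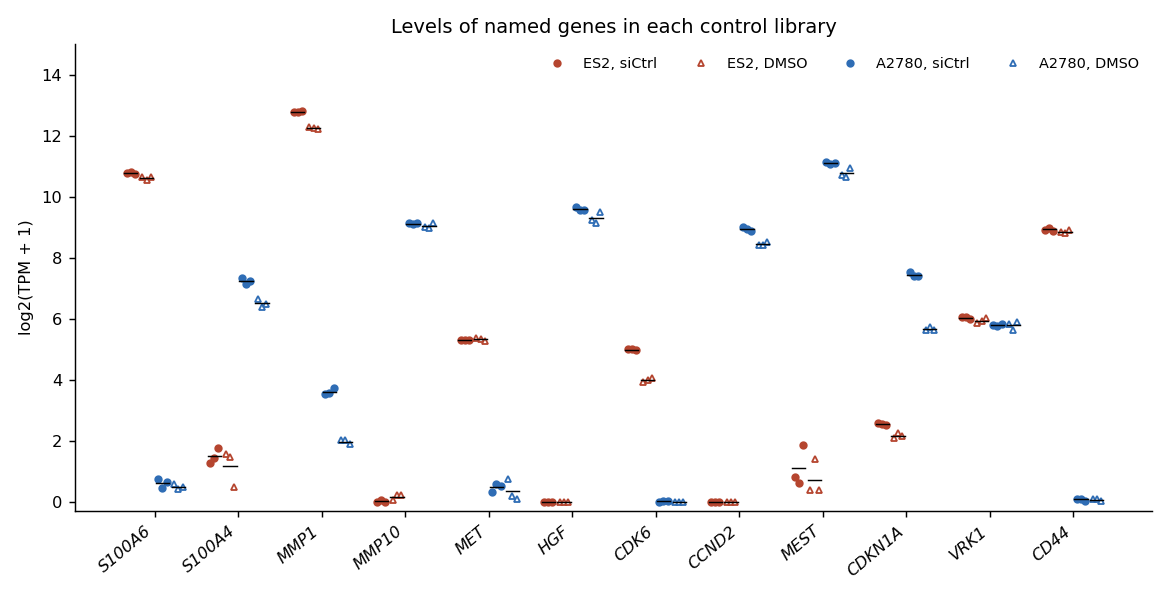
Level of 12 genes in each control library, as log2(TPM + 1), with ES2 (red) left of A2780 (blue), filled circles for siCtrl, open triangles for DMSO and a bar at the mean of 3 libraries. S100A6, MMP1, MET and CDK6 sit high in ES2 and near 0 or low in A2780, while MMP10, HGF, CCND2 and MEST do the opposite, and VRK1 differs little between the lines.

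By the same rule, the other genes with the largest rises in ES2 were MYEOV, G0S2, MT1E, KRT81, SERPINB2, SRGN, CD44, CXCL5, KRT7, S100A16, CPA4, RGS4 and PLAT. CD44, the hyaluronan receptor, ranged from 445 to 506 TPM in ES2, against 0.0166 to 0.0758 TPM in A2780. G0S2, an inhibitor of triglyceride lipolysis, ranged from 656 to 1850 TPM in ES2 and was listed at 0 in all 6 A2780 libraries. SERPINB2 (342 to 945 TPM in ES2, at most 0.0678 TPM in A2780) is an inhibitor of plasminogen activators, and PLAT (338 to 417 TPM in ES2, 0.168 to 0.247 TPM in A2780) is one of its targets. The other largest falls in ES2 were PI15, MMP10, MYL9, CCND2, CARD16, GJA1, IFITM1, NES, IGFBP2, POSTN, DLX5, BST2 and APOE. GJA1, which encodes a gap junction protein, was at 0 to 0.0557 TPM in ES2, against 333 to 458 TPM in A2780. NES, the intermediate filament nestin, was at 0.0185 to 0.0638 TPM in ES2, against 225 to 317 TPM in A2780. Of the genes tested, 1029 were below 1 TPM in every A2780 control library and 1205 in every ES2 control library, so the filter let them in through the other line alone, and 950 and 1140 of them were kept as higher and as lower in ES2. List counts include such genes. Of the kept genes, 125 were listed at 0 in every A2780 control library and 234 in every ES2 control library.

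Among kept genes at least 4-fold apart, 1049 were higher and 881 lower in ES2. The most abundant of the higher ones were MT2A, TMSB10, MMP1, ANXA2, S100A6, G0S2, MYEOV, SSR3, MT1E and TM4SF1. The most abundant of the lower ones were TMSB4X, MEST, PTMS, ID3, IFITM3, HGF, PSAT1, CHCHD10, RGS2 and TPM2. Of the actin-sequestering thymosins, TMSB10 ranged from 5540 to 7110 TPM in ES2, against 818 to 1110 TPM in A2780, whereas TMSB4X ranged from 1060 to 1740 TPM in ES2, against 7320 to 8720 TPM in A2780. The metallothionein MT2A, a zinc and copper buffer, ranged from 5400 to 7880 TPM in ES2, against 77 to 116 TPM in A2780. Metallothionein genes are near-identical in parts, so how reads were divided among MT1E, MT2A and their relatives is uncertain.

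S100 proteins are calcium sensors whose genes lie mostly in 1 cluster on chromosome 1. Among 10 tested, 6 were higher and 2 lower in ES2, with a median difference of 1.52, where the median of all genes is 0 by construction. S100A10, the partner of annexin A2, ranged from 151 to 399 TPM in ES2, against 0 to 0.825 TPM in A2780, and S100A16 from 305 to 781 TPM in ES2, against 0.187 to 0.589 TPM in A2780. S100A4, a motility-associated member, went the other way, with 0.408 to 2.4 TPM in ES2 and 83.4 to 162 TPM in A2780 (-5.37 ± 0.16, adjusted p 5.85e-12). S100A1 was also lower, with 1.04 to 3.74 TPM in ES2 and 21.4 to 48 TPM in A2780. S100A13, in the same cluster, was not kept, with means of 228 TPM in ES2 and 282 TPM in A2780. Neighbours in the cluster therefore differed in opposite directions: S100A6 (chromosome 1, 153534599 to 153536244, minus strand, GRCh38) and S100A4 (153543613 to 153550136, minus strand) are separated by S100A5 alone among tested genes, and S100A5 averaged 1.26 TPM in ES2 and 0.388 TPM in A2780. Positions here and later are those of GENCODE release 29, matched by gene name, since the submitters' build, hg19, is another.

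The promoter windows of this pair are shown because the genes are neighbours on the same strand with opposite levels. Each runs from 250 bases before to 50 bases after the gene's start (RefSeq, GRCh38.p14, minus strand, S100A6 at chr1:153535942-153536241 and S100A4 at chr1:153545757-153546056). Capitals would mark the AP-1 word TGANTCA, which neither holds, on either strand. The S100A6 window has 31 CpG dinucleotides, and the S100A4 window has 8.
S100A6: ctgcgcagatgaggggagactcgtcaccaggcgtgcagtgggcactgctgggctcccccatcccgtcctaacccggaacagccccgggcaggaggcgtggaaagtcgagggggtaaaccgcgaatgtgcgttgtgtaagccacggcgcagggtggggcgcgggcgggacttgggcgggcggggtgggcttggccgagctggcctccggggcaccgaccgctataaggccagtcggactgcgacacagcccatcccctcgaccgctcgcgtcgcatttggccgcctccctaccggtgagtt
S100A4: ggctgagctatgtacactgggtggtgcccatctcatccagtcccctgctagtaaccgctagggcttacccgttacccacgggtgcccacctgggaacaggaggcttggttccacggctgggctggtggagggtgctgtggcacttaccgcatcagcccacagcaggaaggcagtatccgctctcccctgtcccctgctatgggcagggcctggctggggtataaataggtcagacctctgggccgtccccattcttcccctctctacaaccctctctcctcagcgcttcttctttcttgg

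Matrix proteases and their inhibitors numbered 24 tested genes, of which 16 were higher and 5 lower in ES2 (median 1.89). Beside MMP1, the urokinase PLAU averaged 415 TPM in ES2 and 6.8 TPM in A2780, its receptor PLAUR 173 TPM in ES2 and 27.3 TPM in A2780, and the membrane protease MMP14 145 TPM in ES2 and 1.51 TPM in A2780. MMP10, a stromelysin, was the largest fall of the list, at 0 to 0.175 TPM in ES2 and 502 to 557 TPM in A2780 (-8.82 ± 0.04, adjusted p 4.22e-19). MMP11 averaged 0.221 TPM in ES2 and 15.8 TPM in A2780, and MMP15 averaged 0.162 TPM in ES2 and 9.69 TPM in A2780. The tissue inhibitor TIMP1 was not kept, with 365 TPM in ES2 and 542 TPM in A2780. On chromosome 11 the kept genes MMP8 and MMP10 lie on one side of MMP1 and MMP3 on the other, and all 3 were lower in ES2. MMP8 averaged 0.0362 TPM in ES2 and 8.59 TPM in A2780, and MMP3 averaged 6.43 TPM in ES2 and 33 TPM in A2780.

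The MMP10 window (chr11:102780579-102780878, minus strand) is shown beside that of the chemokine CXCL8 (chr4:73740319-73740618, plus strand), the one off in ES2 and the other off in A2780, because each holds 1 AP-1 word, in capitals. The word starts 67 bases before the gene's start in MMP10 and 137 bases before it in CXCL8. Such a match describes the letters only, and binding was not tested.
MMP10: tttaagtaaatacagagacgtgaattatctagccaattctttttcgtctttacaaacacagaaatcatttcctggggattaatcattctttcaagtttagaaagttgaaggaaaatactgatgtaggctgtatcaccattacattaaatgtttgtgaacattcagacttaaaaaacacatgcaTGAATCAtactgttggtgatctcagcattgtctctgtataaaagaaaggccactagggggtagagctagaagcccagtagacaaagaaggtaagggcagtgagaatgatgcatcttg
CXCL8: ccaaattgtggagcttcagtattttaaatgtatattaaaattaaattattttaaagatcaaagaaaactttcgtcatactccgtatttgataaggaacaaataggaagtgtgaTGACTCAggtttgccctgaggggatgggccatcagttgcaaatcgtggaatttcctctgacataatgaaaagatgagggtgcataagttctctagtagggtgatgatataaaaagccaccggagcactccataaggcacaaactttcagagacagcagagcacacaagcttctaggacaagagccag

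The promoter table matched 10456 of the 13541 genes tested, 772 of the 1049 higher and 607 of the 881 lower ones at least 4-fold apart, and has more than 1 window for some genes. Of its 15409 windows of tested genes, 5.26% hold the word TGANTCA, which reads the same on both strands. It is in 10.4% of 1273 windows of genes kept as higher in ES2 by at least 4-fold, and in 5.46% of 952 windows of genes kept as lower by at least 4-fold. Of all 35116 windows in the promoter table, with genes not tested included, 7.71% hold it. Windows with fewer than 5 CpG dinucleotides made up 18.2% of the higher set, 13.3% of the lower set and 9.66% of all windows of tested genes. FOSL1, a subunit of the AP-1 factor, ranged from 538 to 615 TPM in ES2, against 1.73 to 4.38 TPM in A2780 (7.42 ± 0.04, adjusted p 1.8e-18). A link between its level and the genes with this word was not tested.

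Of 25 collagen and collagen-processing genes tested, 16 were higher and 8 lower in ES2 (median 2.23). The crosslinking enzyme LOX averaged 213 TPM in ES2 and 0.255 TPM in A2780, and COL5A1 averaged 182 TPM in ES2 and 0.77 TPM in A2780. COL5A2, which encodes a partner chain of COL5A1, averaged 7.78 TPM in ES2 and 248 TPM in A2780, and COL3A1 averaged 0.00456 TPM in ES2 and 50.3 TPM in A2780. Integrins and laminins had 14 higher and 7 lower of 25 (median 1.31). Laminin beta 3, LAMB3, averaged 204 TPM in ES2 and 0.0567 TPM in A2780, and ITGA3 averaged 173 TPM in ES2 and 2.89 TPM in A2780. The fibronectin and vitronectin receptor chain ITGAV averaged 16.1 TPM in ES2 and 245 TPM in A2780. Caveola genes had 5 higher and 1 lower of 7 (median 3.57), led by CAV1, the coat protein of caveolae, with 393 to 428 TPM in ES2 and 0.4 to 1.37 TPM in A2780.

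Mesenchymal genes split into 13 higher and 11 lower of 27 (median 0.5). NT5E, a nucleotidase on the cell surface, averaged 259 TPM in ES2 and was listed at 0 in A2780, and TGFBI averaged 181 TPM in ES2 and 0.391 TPM in A2780. Among the genes named for their falls, 3 encode parts of the contractile apparatus or bind to it: MYL9 was listed at 0 in ES2 and averaged 499 TPM in A2780, TAGLN averaged 0.816 TPM in ES2 and 172 TPM in A2780, and TPM2 averaged 13.4 TPM in ES2 and 619 TPM in A2780. VIM, the mesenchymal intermediate filament, was abundant in both lines, with 3800 TPM in ES2 and 3120 TPM in A2780 (0.45, kept as higher). Epithelial genes had 5 higher and 7 lower of 14 (median -0.57), and all 5 were keratins. KRT7 ranged from 343 to 490 TPM in ES2 and was listed at 0 in A2780, and KRT18 averaged 475 TPM in ES2 and 6.22 TPM in A2780. The junction genes JUP and OCLN were lower, JUP with 0.0868 TPM in ES2 and 16.3 TPM in A2780 and OCLN with 1.73 TPM in ES2 and 18.1 TPM in A2780. EPCAM, an adhesion molecule of most carcinomas, was low in both lines, with 0.141 TPM in ES2 and 1.44 TPM in A2780. KRT81 has close hair-keratin relatives, and its 513 to 703 TPM in ES2 may include their reads.

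**Figure D2:**
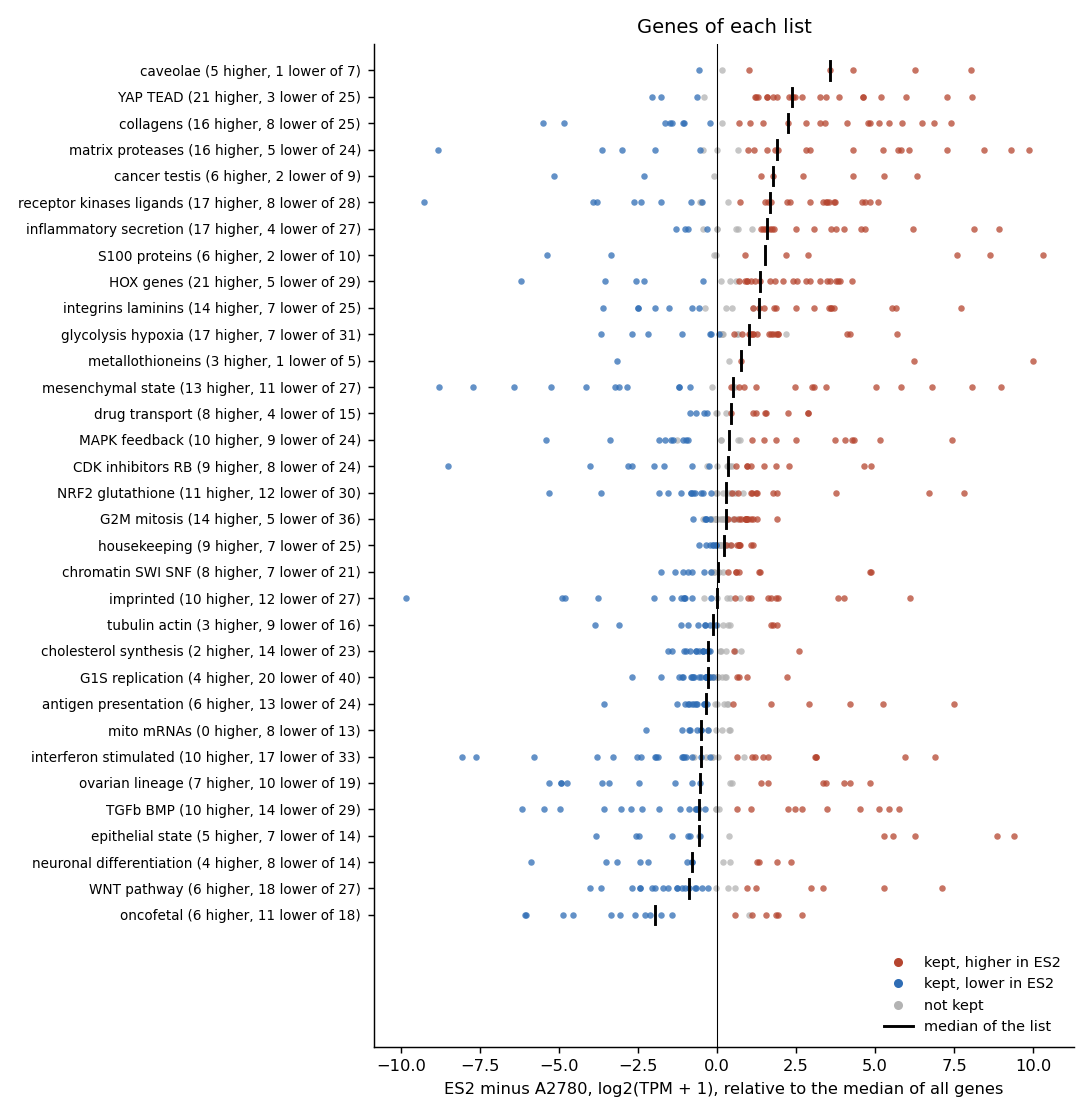
ES2 minus A2780 difference of every tested gene of 33 lists, on the log2(TPM + 1) scale relative to the median of all genes, with kept genes in red (higher in ES2) or blue (lower in ES2), other genes in grey and a black bar at the list's median. Caveola, YAP/TEAD, collagen and protease lists have medians of 1.89 to 3.57, and the oncofetal list has a median of -1.96.

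Receptor tyrosine kinases and their ligands had 17 higher and 8 lower of 28 (median 1.67). The HGF pair was split between the lines: the receptor MET ranged from 37.9 to 40.6 TPM in ES2, against 0.074 to 0.687 TPM in A2780 (5.08 ± 0.1, adjusted p 2.13e-13), while its ligand was found in A2780 alone. EGFR averaged 36 TPM in ES2 and 2.13 TPM in A2780, and its ligands HBEGF (63.2 TPM in ES2, 1.82 TPM in A2780) and EREG (11.5 TPM in ES2, 0.032 TPM in A2780) were higher with it. ERBB2 averaged 0.4 TPM in ES2 and 22.8 TPM in A2780, and FGFR4 averaged 0.164 TPM in ES2 and 17.7 TPM in A2780. Transcripts that follow MAPK signalling had 10 higher and 9 lower of 24 (median 0.39). The phosphatase DUSP4 averaged 17.4 TPM in ES2 and 0.0241 TPM in A2780, and PHLDA1 averaged 44.2 TPM in ES2 and 0.427 TPM in A2780. SPRY1, a feedback inhibitor of receptor signalling, ranged from 1.52 to 5.92 TPM in ES2, against 179 to 258 TPM in A2780. MYC was not kept, with 103 TPM in ES2 and 105 TPM in A2780.

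Genes known as targets of the YAP and TEAD transcription factors had the most one-sided split of the signalling lists, with 21 higher and 3 lower of 25 (median 2.36). The matricellular genes CCN2 (722 TPM in ES2, 13.3 TPM in A2780) and CCN1 (940 TPM in ES2, 41.7 TPM in A2780) and the membrane repair gene MYOF (208 TPM in ES2, 0.536 TPM in A2780) were among them. LATS2, a kinase that restrains YAP, was lower, with 5.47 TPM in ES2 and 23.7 TPM in A2780. TGF-beta and BMP genes had 10 higher and 14 lower of 29 (median -0.57). The activin subunit INHBA averaged 49 TPM in ES2 and 0.0307 TPM in A2780, its binding protein FST 56.4 TPM in ES2 and 0.253 TPM in A2780, and the receptor TGFBR2 92.2 TPM in ES2 and 1.91 TPM in A2780. The ID genes, which encode inhibitors of basic helix-loop-helix factors and are classic BMP targets, were all 4 lower. ID3 ranged from 12.5 to 57 TPM in ES2, against 930 to 1050 TPM in A2780, and ID2 averaged 0.433 TPM in ES2 and 115 TPM in A2780. WNT pathway genes had 6 higher and 18 lower of 27 (median -0.89). The co-receptor LRP5 averaged 0.41 TPM in ES2 and 23.9 TPM in A2780 and LGR4 2.41 TPM in ES2 and 48.4 TPM in A2780, while the secreted antagonist SFRP1 averaged 124 TPM in ES2 and 0.0141 TPM in A2780.

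Positional identity differed cluster by cluster. HOX genes encode homeobox factors that mark position along the body axis, and 21 were higher and 5 lower in ES2 of 29 tested (median 1.36). Of 11 HOXA genes 8 were tested, and their summed level ranged from 48.5 to 74.9 TPM in ES2, against 0 to 0.155 TPM in A2780. Each of the 8 was below 1 TPM in every A2780 library and passed the filter through ES2 alone, so that all were higher in ES2 follows from the filter. Of 9 HOXD genes 5 were tested, 4 of them below 1 TPM in every A2780 library, summing to 44.6 to 52.7 TPM in ES2 and 1.46 to 3.86 TPM in A2780. HOXB genes were expressed in both lines, with 6 higher and 1 lower of 8. The HOXC cluster went the other way at its centre: 4 of 8 were lower and 2 higher, the 2 being below 1 TPM in every A2780 library, and the sum was 45.1 to 68.8 TPM in ES2 and 458 to 556 TPM in A2780. HOXC10 ranged from 0.332 to 1.89 TPM in ES2, against 142 to 197 TPM in A2780, and HOXC6 from 6.74 to 11.1 TPM in ES2, against 121 to 123 TPM in A2780. HOXA10 had 9.83 to 25.8 TPM in ES2 and was listed at 0 in A2780.

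**Figure D3:**
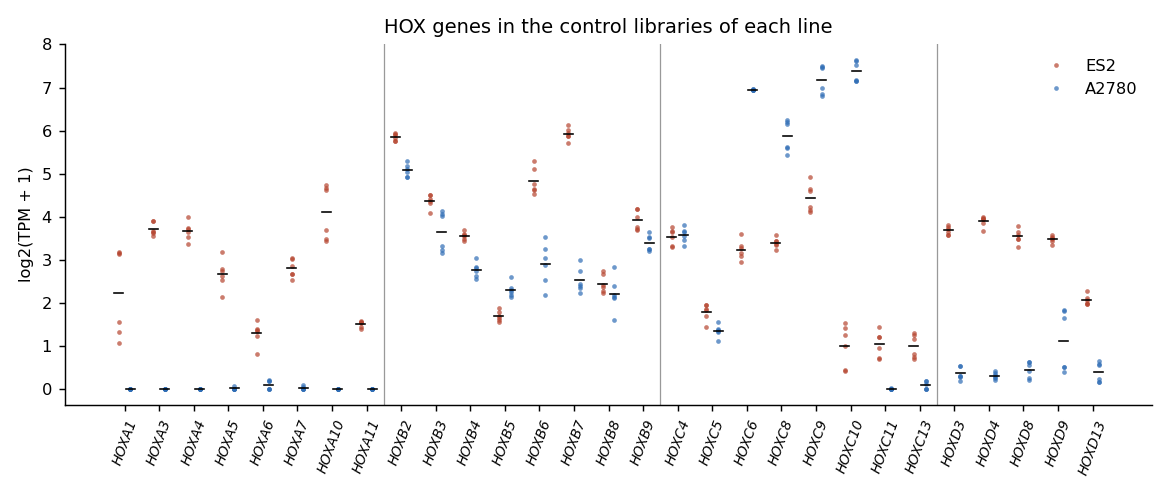
Level of the 29 tested HOX genes in the 6 ES2 (red, left) and 6 A2780 (blue, right) control libraries, as log2(TPM + 1), with a bar at the mean of each line. The HOXA genes are near 0 in every A2780 library, and HOXC6, HOXC8, HOXC9 and HOXC10 are higher in A2780 than in ES2.

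Markers of ovarian and Müllerian lineages had 7 higher and 10 lower of 19 (median -0.55). PAX8 averaged 1.47 TPM in ES2 and 0.0123 TPM in A2780, and WT1 averaged 1.97 TPM in ES2 and 0.0485 TPM in A2780, so these defining transcripts of ovarian carcinoma were at or below about 2 TPM in both lines. PAX2, a factor of the Müllerian duct and kidney, was listed at 0 in ES2 and ranged from 39.6 to 46.8 TPM in A2780. TBX2 averaged 5.35 TPM in ES2 and 212 TPM in A2780, while its paralogue TBX3 averaged 16 TPM in ES2 and 0.0132 TPM in A2780. Of the nuclear receptors NR2F2 and NR2F1, NR2F2 averaged 63.4 TPM in ES2 and 1.5 TPM in A2780, and NR2F1 averaged 5.29 TPM in ES2 and 178 TPM in A2780. Oncofetal genes, active in the embryo and again in some tumours, had 6 higher and 11 lower of 18 (median -1.96). LIN28A, an RNA-binding protein that blocks let-7 maturation, was at 0 to 0.0554 TPM in ES2, against 59.2 to 96.5 TPM in A2780, and SALL4 was at 0 to 0.0309 TPM in ES2, against 57.5 to 97.9 TPM in A2780. HMGA2, a let-7 target, ranged from 70.5 to 127 TPM in ES2, against 455 to 576 TPM in A2780, and HMGA1 averaged 1620 TPM in ES2 and 619 TPM in A2780.

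Imprinted genes were divided, with 10 higher and 12 lower of 27 (median -0.01). On chromosome 7, COPG2, which overlaps the end of MEST (130486171 to 130506465, plus strand), was higher in ES2, with 51.9 to 58 TPM, against 16.9 to 19.6 TPM in A2780. The neighbour CEP41 was also higher, with 31 to 39 TPM in ES2 and 13.9 to 20.1 TPM in A2780, so the lower MEST level in ES2 was not shared by the tested genes beside it. DLK1 and NDN were listed at 0 in ES2 and averaged 30.8 and 33.8 TPM in A2780. PEG10 (20.3 TPM in ES2, 0.525 TPM in A2780) and its neighbour SGCE (17.1 TPM in ES2, 0.242 TPM in A2780) were higher. Cancer-testis genes had 6 higher and 2 lower of 9 (median 1.78), with MAGEA3 at 77.3 TPM in ES2 and 0.0849 TPM in A2780. Neuronal genes had 4 higher and 8 lower of 14 (median -0.8), with the neurofilament NEFH at 0.01 TPM in ES2 and 66.6 TPM in A2780. MAGEA genes are close copies, so the share of each is uncertain.

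Secreted inflammatory factors and NF-kappaB genes had 17 higher and 4 lower of 27 (median 1.58). CXCL8, a neutrophil chemokine, ranged from 183 to 333 TPM in ES2 and was listed at 0 in A2780. CXCL5 ranged from 388 to 499 TPM in ES2, against at most 0.0307 TPM in A2780, and CXCL1 averaged 70.6 TPM in ES2 and 0.0345 TPM in A2780. NFKBIA, an inhibitor and target of NF-kappaB, was lower, with 17.4 TPM in ES2 and 38 TPM in A2780. Interferon-stimulated genes had 10 higher and 17 lower of 33 (median -0.5). IFITM1 ranged from 0.121 to 0.941 TPM in ES2, against 393 to 436 TPM in A2780, and BST2, the virion tether tetherin, from 0 to 0.376 TPM in ES2, against 244 to 266 TPM in A2780. IFI16, a DNA sensor, was higher, with 143 to 274 TPM in ES2 and 0.231 to 1.75 TPM in A2780. Antigen presentation genes had 6 higher and 13 lower of 24 (median -0.35). HLA-B averaged 4.72 TPM in ES2 and 75.4 TPM in A2780. Reads of class I genes depend on how close an allele is to the transcript set used, so the HLA-B values are uncertain, and IFITM1 to IFITM3 share sequence.

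CCND2, a D-type cyclin, was listed at 0 in ES2, against 342 to 514 TPM in A2780. CDK6, its kinase partner, ranged from 14.3 to 31 TPM in ES2, against 0 to 0.027 TPM in A2780, while CDK4 was abundant in both, with 345 TPM in ES2 and 465 TPM in A2780. CCND1 ranged from 273 to 473 TPM in ES2, against 86.2 to 146 TPM in A2780. CDKN2A, the locus of the inhibitors p16 and ARF, ranged from 310 to 391 TPM in ES2, against 9.05 to 17.8 TPM in A2780 (4.87 ± 0.07, adjusted p 4.89e-15), and CCNE1 from 5.04 to 10.6 TPM in ES2, against 56.4 to 63.1 TPM in A2780. CDKN1A, the CDK inhibitor p21, ranged from 3.29 to 5 TPM in ES2, against 48.1 to 183 TPM in A2780, with no overlap (-4.02 ± 0.04, adjusted p 3.11e-16). The wide range in A2780 came from the controls, with 173 ± 8.73 TPM with siCtrl and 49.5 ± 2.18 TPM with DMSO in A2780 (SD, n = 3 each). In all, CDK, cyclin and RB genes had 9 higher and 8 lower of 24 (median 0.33). Replication genes of G1 and S phase had 4 higher and 20 lower of 40 (median -0.29), and G2 and mitosis genes 14 higher and 5 lower of 36 (median 0.29). MKI67, a marker of cycling cells, was not kept, with 37.3 TPM in ES2 and 39.4 TPM in A2780. Among SWI/SNF chromatin remodelling subunits, 8 were higher and 7 lower of 21 (median 0.02). The ATPase SMARCA2 ranged from 28.9 to 49.3 TPM in ES2, against 0.182 to 0.983 TPM in A2780, and ARID1A from 12.5 to 22.8 TPM in ES2, against 37.6 to 62.2 TPM in A2780.

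Glycolysis and hypoxia genes had 17 higher and 7 lower of 31 (median 1.01), with the phosphofructokinase PFKP at 308 TPM in ES2 and 5.89 TPM in A2780 and GAPDH at 5360 TPM in ES2 and 2870 TPM in A2780. Cholesterol synthesis genes had 2 higher and 14 lower of 23 (median -0.29), but 2 higher and 8 lower after median-of-ratios scaling, with HMGCS1 at 30.6 TPM in ES2 and 88.7 TPM in A2780. NRF2 and glutathione genes had 11 higher and 12 lower of 30 (median 0.29), a split that turned to 12 higher and 11 lower after median-of-ratios scaling. GSTM3 averaged 209 TPM in ES2 and 0.0339 TPM in A2780, whereas GSTM1 averaged 0.0378 TPM in ES2 and 46.4 TPM in A2780. The ferritin heavy chain FTH1 averaged 1290 TPM in ES2 and 4420 TPM in A2780. Metallothioneins had 3 higher and 1 lower of 5 (median 0.76), and drug transport genes 8 higher and 4 lower of 15 (median 0.45), including the vault protein MVP with 40.8 TPM in ES2 and 5.38 TPM in A2780. Tubulin and actin genes had 3 higher and 9 lower of 16 (median -0.13), and 5 higher and 7 lower after median-of-ratios scaling, with TUBB6 at 601 TPM in ES2 and 197 TPM in A2780. Of 25 genes often used as stable references, 9 were higher and 7 lower (median 0.21), and 10 were higher and 1 lower after that scaling. Mitochondrial mRNAs were 4.03% to 5.6% of TPM in ES2 and 5.96% to 8.03% in A2780, with 0 higher and 8 lower of 13, and 0 higher and 4 lower after median-of-ratios scaling. With these mRNAs removed and TPM rescaled, 8822 of the kept genes were kept in the same direction.

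Of the markers of other cell types, 6 of 10 for leukocytes, 6 of 9 for endothelium, 5 of 7 for erythroid cells, 3 of 7 for melanocytes and 0 of 8 for fibroblasts were below 1 TPM in all 12 libraries. The summed leukocyte list was 36.2 to 67.4 TPM in ES2 and 3.15 to 4.09 TPM in A2780, nearly all of it CD68, a lysosomal protein (34.7 to 66.8 TPM in ES2, 1.93 to 2.75 TPM in A2780). The pan-leukocyte PTPRC stayed at or below 0.458 TPM in ES2 and 0.569 TPM in A2780, and CD3E was at 0. Endothelial markers summed to 130 to 186 TPM in ES2 and 0.809 to 1.6 TPM in A2780, of which the receptor TIE1 (97.3 to 145 TPM in ES2, at most 0.0538 TPM in A2780) and the cadherin CDH5 (29.9 to 39.3 TPM in ES2, at most 0.034 TPM in A2780) made up nearly all. PECAM1 (0.231 to 0.482 TPM in ES2, 0.12 to 0.705 TPM in A2780), VWF (at most 0.0129 TPM in ES2, 0 in A2780) and ERG (0 in both), of the same list, were at or near 0. Fibroblast markers summed to 85.9 to 134 TPM in ES2 and 66.4 to 79.9 TPM in A2780, with 2 higher and 5 lower of 7. Erythroid markers summed to 0.0225 to 0.641 TPM in ES2 and 2.93 to 6.06 TPM in A2780, with HBB at 0 in both and the only tested member lower. Melanocyte markers summed to 20.1 to 50.3 TPM in ES2 and 4.32 to 8.05 TPM in A2780, mostly TYRP1 and MITF, while SOX10 stayed at or below 0.0616 TPM in ES2 and 0.0235 TPM in A2780. In bulk RNA, fewer cells with a transcript and less of it per cell cannot be told apart.

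Position along the chromosomes was not used to choose the genes. Among 12906 protein-coding genes tested on the autosomes and chromosome X, those of chromosome 19 stood lowest, with a median difference of -0.69 over 994 genes, of which 8.55% were kept as higher and 70.2% as lower. Chromosome 22 followed with -0.37 over 309 genes. Chromosome 6 stood highest, with 0.43 over 666 genes (45.8% kept as higher, 20.6% as lower), then chromosome 20 with 0.3. Zinc finger (ZNF) genes, many of which sit on chromosome 19, did not make up the pattern: the 218 on chromosome 19 had a median of -0.48, the 776 other genes of chromosome 19 had -0.76, and the 228 ZNF genes elsewhere had -0.29. Median-of-ratios scaling and quantile normalization each left the chromosome 19 median at -0.69. GC content moved with the differences. Of the 12590 protein-coding genes with a transcript sequence (97.6%), the most GC-rich of 4 equal classes had a median of -0.37 and the least GC-rich 0.2. Chromosome 19 transcripts had a median GC content of 59.9%, against 49% for the others. Within the 4 GC classes, from low to high, the chromosome 19 medians were -0.46, -0.37, -0.59 and -0.82, against 0.21, 0.14, -0.02 and -0.24 for genes of other chromosomes, so the chromosome 19 genes were lower in each class. Chromosome 22 genes were also lower in each class, with medians of -0.15 (9 genes), 0 (30), -0.37 (111) and -0.42 (148) from low to high. All genes of these classes had medians of 0.2, 0.12, -0.05 and -0.37.

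**Figure D4:**
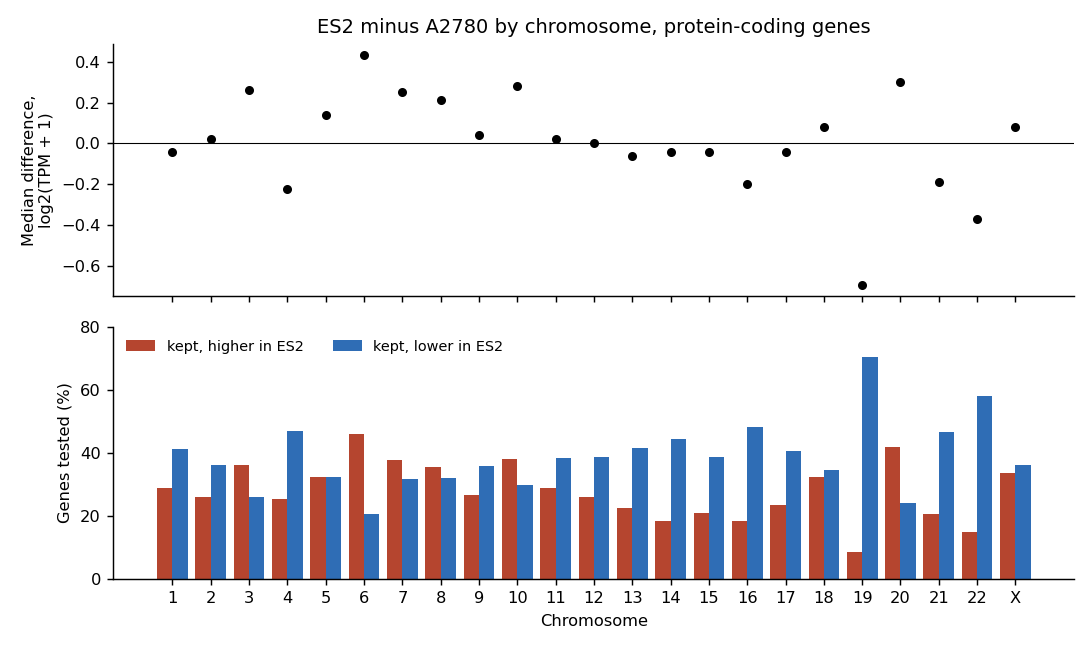
Top, median ES2 minus A2780 difference of the tested protein-coding genes of each chromosome, on the log2(TPM + 1) scale relative to the median of all genes; bottom, percent of those genes kept as higher (red, left) or lower (blue, right) in ES2. Chromosome 19 is lowest, at -0.69 with 70.2% of genes lower, and chromosome 6 is highest, at 0.43.

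Some neighbouring genes also differed together. Runs of at least 4 adjacent tested protein-coding genes, all kept in the same direction and at least 4-fold apart, numbered 12 on the higher side and 7 on the lower side and held 87 genes. Of the 12906 protein-coding genes in order, 1014 were kept as higher and 839 as lower by at least 4-fold, so most such genes lay outside runs. How many runs would arise by position alone was not tested. The longest on the higher side, with 7 genes, ran on chromosome 11 from 69653076 to 71524107 and held LTO1, FADD, PPFIA1, CTTN, SHANK2, DHCR7 and NADSYN1. FADD, the adaptor of death receptors, ranged from 223 to 310 TPM in ES2, against 35.4 to 39.2 TPM in A2780. CTTN, the actin-binding protein cortactin, ranged from 460 to 510 TPM in ES2, against 114 to 128 TPM in A2780. Next to this run lie CCND1, TPCN2 (29.5 to 63.1 TPM in ES2, 3.13 to 5.85 TPM in A2780) and MYEOV (922 to 1470 TPM in ES2, at most 0.187 TPM in A2780). DHCR7, the last enzyme of cholesterol synthesis, ranged from 270 to 378 TPM in ES2, against 43.7 to 67.3 TPM in A2780, and was 1 of the 2 genes of its pathway list that were higher. Another run on the higher side held the keratins KRT80, KRT7, KRT81, KRT79, KRT8 and KRT18 on chromosome 12, and others held HOXA genes with SKAP2, HOXD genes, and MAGEA genes. The longest on the lower side, also 7 genes, was on chromosome 19, from 49289638 to 49442360, and held SLC6A16, CD37, TEAD2, DKKL1, PTH2, GFY and SLC17A7.

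The choice of control mattered for many genes. The line difference under DMSO and that under siCtrl differed at an adjusted p below 0.05 for 6247 genes (46.1%), of which 68.6% were more positive with DMSO. That share follows the scaling, since it was 44.3% after median-of-ratios scaling, and the median of this contrast was 0.16 before and -0.02 after it. In 471 genes the 2 controls gave called differences of opposite sign, and these genes were not kept. Gene values of this contrast are given relative to its median. CCDC80, a matrix protein, averaged 9.11 ± 1.56 TPM in ES2 and 4.87 ± 0.871 TPM in A2780 with siCtrl, and 87.9 ± 8.47 TPM in ES2 and 5.43 ± 1.59 TPM in A2780 with DMSO (SD, n = 3 each). Its line difference was thus larger with DMSO, by 2.87 ± 0.25 (adjusted p 4.09e-06). IFI30, a lysosomal thiol reductase, averaged 8.27 ± 3.14 TPM in ES2 and 25.2 ± 2.11 TPM in A2780 with siCtrl, and 0.64 ± 0.352 TPM in ES2 and 48.3 ± 6.03 TPM in A2780 with DMSO (SD, n = 3 each), a change of -3.54 ± 0.29 (adjusted p 6.3e-06). FBXO32, a ubiquitin ligase subunit, averaged 31.3 ± 3.69 TPM in ES2 with siCtrl and 4.67 ± 0.306 TPM in ES2 with DMSO (SD, n = 3 each), and was at or below 0.275 TPM in every A2780 library.

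Cell cycle and sterol lists differed between the controls mostly in 1 direction. Of 40 replication genes, 35 had a difference more positive with DMSO and 0 more negative: 4 were called higher and 34 lower in ES2 with siCtrl, and 8 higher and 20 lower with DMSO. Of 36 mitosis genes, 31 were more positive with DMSO, and 14 were higher and 15 lower with siCtrl, against 27 higher and 6 lower with DMSO. Of all 13541 genes tested, 4288 were more positive and 1959 more negative with DMSO. With siCtrl 4196 of them were called higher and 6973 lower, and with DMSO 4957 higher and 5710 lower. After median-of-ratios scaling, 24 of 40 replication genes and 19 of 36 mitosis genes were more positive, against 2698 of the 13541. The count of all genes more negative was then 3388. Cholesterol synthesis genes went the other way, with 17 of 23 more negative with DMSO and 0 more positive, and 20 of 23 after that scaling. What else differed between the siCtrl and the DMSO libraries is not given in the labels and cannot be told apart from the control itself.

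**Figure D5:**
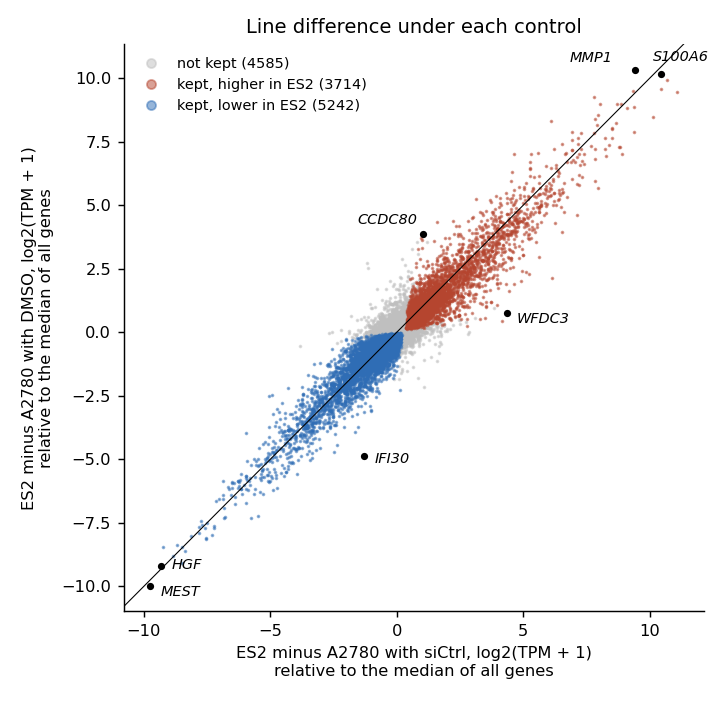
ES2 minus A2780 difference with siCtrl (horizontal) and with DMSO (vertical) for the 13541 genes tested, on the log2(TPM + 1) scale relative to the median of each contrast, with kept genes in red (higher in ES2) or blue (lower in ES2), others in grey, and the line of equality. S100A6, MMP1, MEST and HGF lie near the line, whereas CCDC80, IFI30 and WFDC3 lie far from it. The line difference of MMP1 was still called as different between the controls, by 0.95 ± 0.08 (adjusted p 1.33e-06 in limma). That of HGF was called too (adjusted p 0.0356 in limma).

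The treated libraries, which the rule did not use and which share no library with the controls, held most of the baseline. In a separate fit of these 12 libraries, 3412 of 13904 genes were higher in ES2 under both treatments (24.5%) and 5741 were lower under both (41.3%). Of the 3650 genes kept as higher and tested there, 2868 (78.6%) were higher under siVRK1 and under luteolin, and of 5193 kept as lower, 4475 (86.2%) were lower under both. S100A6 averaged 1750 ± 73.1 TPM in ES2 and 0.241 ± 0.33 TPM in A2780 with siVRK1, and 1240 ± 139 TPM in ES2 and 0.327 ± 0.337 TPM in A2780 with luteolin (SD, n = 3 each). HGF was listed at 0 in all treated ES2 libraries, and in A2780 it averaged 678 ± 35.9 TPM with siVRK1 and 509 ± 23.4 TPM with luteolin (SD, n = 3 each). CDKN1A stayed far lower in ES2, at 14.6 ± 1.2 TPM with siVRK1 against 355 ± 4.48 TPM in A2780, and at 11.1 ± 3.12 TPM with luteolin against 883 ± 93.4 TPM in A2780 (SD, n = 3 each). MMP3 was close in both lines in the treated libraries, with 31 ± 2.39 TPM in ES2 and 29.1 ± 1.89 TPM in A2780 with siVRK1, and 16.6 ± 1.76 TPM in ES2 and 16.9 ± 2.98 TPM in A2780 with luteolin (SD, n = 3 each). By list, the kept members that were called the same way under both treatments were 25 of 26 HOX genes, 17 of 17 oncofetal genes and 23 of 24 receptor and ligand genes, against 9 of 24 replication genes and 9 of 16 cholesterol genes.

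VRK1, the kinase targeted elsewhere in the series, was close in both lines, with 57.3 to 66.2 TPM in ES2 and 48.8 to 58.7 TPM in A2780, ranges that overlap (0.36 ± 0.05). It was kept as higher by a narrow margin, with adjusted p 0.00368 under siCtrl and 0.0431 under DMSO in limma. These p-values test the difference before the median of all genes was subtracted, unlike the 0.36. VRK1 was no longer kept when any 1 library was left out other than ES2 siCtrl replicate 3, ES2 DMSO replicate 1 or A2780 DMSO replicate 3. With siVRK1 it averaged 3.73 ± 0.703 TPM in ES2 and 9.57 ± 1.68 TPM in A2780 (SD, n = 3 each). Genes nearest the threshold were SLC35G1 (ES2 13.4 to 19.9 TPM, A2780 17.5 to 22.5 TPM) and HOXB9 (ES2 11.9 to 17.2 TPM, A2780 8.16 to 11.5 TPM) just inside it, and TRDMT1 (ES2 7.49 to 10.9 TPM, A2780 3.09 to 9.6 TPM) and the pseudogene RPS26P54 (ES2 0 to 8.76 TPM, listed at 0 in A2780) just outside.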

How the data were processed

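RNA of ES2 and A2780 was measured by RNA-seq, with 3 libraries per group as the titles name them. Per the submitters' processing notes, FastQC, kallisto and hg19 were used, without versions. The deposited values are TPM per transcript, made by the authors and summing to a fixed total, so the depth is unknown and no interval for counting error can be given. Of 193845 lines, 1958 were identical repeats of a transcript and were used once. TPM was summed per symbol over distinct transcripts. Left out were 9542 transcripts without a symbol and 19 with several, which held 0.514% to 1.03% of a library's TPM. Among the ES2 siVRK1 columns 1 name occurs more than once, so these were treated as unnumbered. Some line and treatment labels count upward from sample to sample, so groups follow the titles.

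The 12 control libraries were fitted in R 4.3.3 by limma-trend (limma 3.58.1; log2(TPM + 1), 4 groups, 8 residual degrees of freedom, two-sided, Benjamini-Hochberg adjustment over all genes tested, threshold 0.05). Genes with at least 1 TPM in at least 3 libraries were tested. The 12 treated libraries were fitted separately in the same way. Directions follow TPM as deposited. On simulated libraries, 96% of 100 genes changed 2-fold and 84% of 100 changed 1.5-fold were kept among 13541 genes. The changed genes were drawn only from those above a minimum mean level, so recovery was not tested for genes of low level. No simulated line difference depended on the control, whereas 46.1% of the genes tested here had such a difference called. Recovery was not tested separately by expression level. It was also not tested with as large a share of genes differing as the 66.1% kept here.

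Named genes are S100A6, MMP1, MEST, HGF and VRK1, the 15 largest rises and falls without overlap and with at least 5 TPM in the higher line, the 10 most abundant at least 4-fold apart per direction, up to 3 per direction of each list, 5 per direction for the difference between controls, and 2 on each side of the threshold. Others, such as unkept list members, neighbours and genes of chromosomal runs, were chosen after their values were seen. The 39 lists (1017 genes, 1012 in the table), the members and the tests were chosen with earlier results of these data known. Lists are described by counts and medians, with no test. Some named genes and 1 list are not reported here.

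Other settings tried were a pseudocount of 0.1 or 5, testing every gene or only those at 5 TPM or more, quantile normalization, median-of-ratios scaling, a fit of all 24 libraries, a robust prior variance, removal of mitochondrial mRNAs, the replicate block, and leaving out each library. A fit of the 10 numbered treated libraries was added after seeing the data. Genes with near-identical copies, overlapping genes and antisense genes are uncertain, since kallisto divides reads between copies, and whether strand was used is not stated.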

Additional observations from a re-analysis of the deposited data

Results flagged for a closer look

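For 10 genes the difference between the lines itself differed most between the controls, by the test of that difference in limma. Values are the difference with DMSO minus that with siCtrl, relative to the median, each called at an adjusted p of 0.00221 or below. More positive with DMSO were RNA5SP323 (3.93), ASDURF (3.68), DUX4 (3.35), CCDC80 (2.87) and CA9 (2.81). RNA5SP323 and ASDURF moved in both lines in opposite directions, ASDURF with 1.41 TPM in ES2 and 5.01 TPM in A2780 with siCtrl, and 11.8 TPM in ES2 and 1.68 TPM in A2780 with DMSO. CA9, a carbonic anhydrase known to follow hypoxia, averaged 0.597 TPM in ES2 with siCtrl and 12.6 TPM in ES2 with DMSO, and stayed at or below 0.714 TPM in A2780. DUX4 has many near-identical copies, so its level, 29.5 TPM in A2780 with siCtrl and 1.97 TPM in A2780 with DMSO, is uncertain.

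More negative with DMSO were RPL12P14 (-3.97), KLRC2 (-3.66), IFI30 (-3.54), WFDC3 (-3.54) and FBXO32 (-2.89). In ES2, the pseudogene RPL12P14 averaged 57.7 TPM with siCtrl and 3.19 TPM with DMSO, KLRC2 averaged 13.9 TPM with siCtrl and 0.321 TPM with DMSO, and WFDC3 averaged 32.3 TPM with siCtrl and 2.19 TPM with DMSO. RPL12P14 and KLRC2 were listed at 0 in every A2780 control library.

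In 13 genes kept as higher in ES2 the lines were called in the opposite direction under siVRK1 and under luteolin, and in 14 genes kept as lower likewise. Whether each turn differs from the controls was not tested. RUNX2, a transcription factor of bone and mesenchyme, averaged 30.1 TPM in ES2 and 24.1 TPM in A2780 in the controls, 12.6 TPM in ES2 and 22 TPM in A2780 with siVRK1, and 9.08 TPM in ES2 and 15.1 TPM in A2780 with luteolin. DUT, which keeps uracil out of DNA, averaged 153 TPM in ES2 and 225 TPM in A2780 in the controls, 219 TPM in ES2 and 172 TPM in A2780 with siVRK1, and 228 TPM in ES2 and 173 TPM in A2780 with luteolin.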

How the results depend on the processing

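Among genes whose line difference depended on the control, the direction that held more genes changed under median-of-ratios scaling. The count of genes whose line difference was more positive with DMSO was 4288, and it fell to 2698 under median-of-ratios scaling and to 2808 under quantile normalization, while the count more negative was 1959 and reached 3388 under median-of-ratios scaling. The other counts over all genes, over all lists and over chromosomes stayed within 1.5 times their value. The excess of genes kept as lower shrank, however. Under median-of-ratios scaling 4375 genes were kept as higher and 4567 as lower, and under quantile normalization 4237 and 4875. Counts of single lists moved further under median-of-ratios scaling: kept as lower were 8 cholesterol genes in place of 14, 4 mitochondrial mRNAs in place of 8 and 1 reference gene in place of 7, kept as higher were 5 tubulin and actin genes in place of 3, and 19 mitosis genes in place of 31 were more positive with DMSO. Leaving out 1 library at a time gave 3554 to 3781 genes kept as higher in ES2 and 5048 to 5218 kept as lower. The control difference ranged from 3690 to 4779 genes more positive and from 1695 to 1896 more negative. Under siCtrl 3956 to 4268 genes were higher and 6658 to 7027 lower, and with DMSO 4626 to 5098 were higher and 5455 to 5709 lower. Among the kept genes, 2797 to 2870 were higher and 4349 to 4473 lower under both treatments.

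With the replicate number as a block, 3685 genes were kept as higher and 5230 as lower, and 8845 genes were shared with the fit without it. Same-numbered libraries of different groups did not deviate together (correlations -0.02 to 0.04 over 18 pairs). Differently numbered ones did not either (-0.06 to 0.05 over 36 pairs). Whether same-numbered libraries share a culture or a run is not given in the labels, and these correlations cannot tell. For luteolin, 10 treated libraries have a number of their own, an alternative chosen after seeing the data in which ES2 siVRK1 keeps 1 library, assumed to vary like the others. With the block 3863 genes were higher and 6983 lower in ES2, against 3909 and 7055 without it in the same libraries. The siVRK1 comparison was not run with the block, since 2 of its 3 ES2 columns share a name.

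Among named genes, 57 values over all alternatives were no longer kept and 21 became kept, with none reversed. VRK1 was not kept under 13 alternatives, 9 of which left out 1 library. TPM carry no depth, so counting error cannot be separated from other spread, and transcripts below about 1 TPM are the least certain.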

Other observations

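Schlafen genes, neighbours on chromosome 17 and chosen after their values were seen, were nearly silent in A2780. SLFN11, which is known to sensitize cells to DNA damage, ranged from 21.6 to 28.9 TPM in ES2, against 0 to 0.499 TPM in A2780. SLFN5 ranged from 26.5 to 51.4 TPM in ES2, against 0.0773 to 0.294 TPM in A2780, and SLFN12 from 13 to 20.7 TPM in ES2, against 0 to 0.234 TPM in A2780.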
